A study of Mus musculus with 6 samples.

Results

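The genes described here are 46 interferon-induced genes and Schlafens, taken by name from the 23420 rows of an expression table of mouse induced T (iT) cells by a rule that names genes and reads no value. They form 3 groups, which are given apart. The first holds 31 genes known for induction by type I interferon, the second 11 interferon-gamma-inducible GTPases (Gbp, Irgm, Igtp, Iigp1 and Tgtp genes), and the third 4 Schlafens. Of the 46 genes, 44 reached at least 1 TPM (a transcript level corrected for gene length and scaled to a fixed library total) in at least 3 of 6 libraries and were tested. The other members were Ifi44, which was listed at 0 TPM in all 6 libraries, and Oasl1, which was listed at 0, 0.936 and 0 TPM in CD4SP and at 1.03, 1.10 and 0 TPM in CD8SP iT cells.

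Type I interferons bind the receptor IFNAR1/IFNAR2 and act through the kinases JAK1 and TYK2 on a complex that holds STAT2 and IRF9 and binds the interferon-stimulated response element (ISRE) of target genes. Interferon-gamma binds IFNGR1/IFNGR2 and acts through JAK1 and JAK2 on factors that bind the gamma-activated site (GAS). Targets of both pathways overlap; they include sensors of viral RNA and DNA, enzymes that block viral replication, and the guanylate-binding proteins (GBPs) and immunity-related GTPases (IRGs), which act on the vacuoles of intracellular pathogens. Schlafens are a gene family of the immune system, known in mouse T cells for regulated expression between the resting and the activated state.

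CD4 single-positive (CD4SP) iT cells were compared with CD8 single-positive (CD8SP) iT cells, with 3 libraries of 1000 sorted cells for each population. The study made iT cells from iR9 embryonic stem cells of C57BL/6 background (CD45.2+), a gene-edited line with an rtTA-driven, doxycycline-inducible Runx1-p2a-Hoxa9 cassette in the Rosa26 locus. Progenitors grown from them were transplanted into irradiated B-NDG mice of 8 to 10 weeks (CD45.1+), an immunodeficient NOD strain with the Prkdc scid mutation and no Il2rg, so that the recipients have no T, B or NK cells of their own. Both populations carry the same cassette and were sorted from recipient spleens at week 5 after transplantation, as CD45.2+ cells, with Ter119 and CD11b among the markers they had to lack. The labels give B-NDG, the recipient, as the strain. The study describes each library as a biological replicate, but neither it nor the labels say whether the libraries came from separate mice, so p-values measure the spread between these libraries.

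The sorted identity held in the markers. Cd4, Zbtb7b and Cd40lg together reached 359 to 410 TPM in CD4SP and 2.1 to 3.29 TPM in CD8SP libraries, and Cd8a and Cd8b1 together reached 24.9 to 38.9 and 3236 to 3562 TPM. The T cell genes (Cd3d, Cd3e, Cd3g, Cd2 and Lck) summed to 4484 to 4661 TPM in CD4SP and 3773 to 4250 TPM in CD8SP libraries. Among markers of other cells, the B cell list summed to 15.9 to 22.3 and 21.3 to 24.5 TPM with Ms4a1 and Pax5 at 0, the myeloid list to 17.7 to 32.7 and 20.7 to 24.2 TPM with S100a8 and S100a9 at 0 TPM, and the plasmacytoid dendritic cell list to 1.26 to 3.70 and 1.09 to 3.35 TPM with Klk1 at 0. The conventional dendritic cell list (3.86 to 8.01 against 20.7 to 22.7 TPM) and the NK cell list (17.4 to 20.9 against 60.0 to 75.2 TPM, with Ncr1 at 0) were higher in CD8SP libraries. In the dendritic list Itgax was at 0 to 0.946 TPM in CD4SP and 17.2 to 18.1 TPM in CD8SP libraries, while Xcr1 overlapped. In the NK list Eomes was at 8.19 to 10.6 and 49.9 to 55.4 TPM and Klrb1c at 0.682 to 1.82 and 5.22 to 9.14 TPM, while Tyrobp overlapped. In the myeloid list, Lyz2 was called higher in CD4SP (17.1 to 30.9 against 3.64 to 8.33 TPM) and Cd68 higher in CD8SP libraries (0.596 to 6.59 against 13.5 to 17.5 TPM). The erythroid list stayed at or under 1.11 TPM and the stromal list at or under 0.648 TPM. Transcripts of 84 ribosomal protein genes made up 24.1 to 28.7% of TPM in CD4SP and 32.1 to 35.9% in CD8SP libraries. Across all 10476 tested genes the median log2 fold change was 0.28 towards CD4SP, 0.14 with the ribosomal protein genes removed, and 0.00017 after median-of-ratios rescaling, which sets each library on its typical gene. Positive values mean higher in CD4SP throughout, on the log2(TPM + 1) scale, which understates the change of low genes. With the ribosomal protein genes removed, the median was 0.79 for the GTPases, 0.11 for the type I interferon genes and 0.060 for the Schlafens. The part of the marker differences in the results was not tested. In bulk samples, fewer cells with a transcript and less of it per cell cannot be told apart.

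A gene was called when limma's adjusted p was under 0.05 and the difference was over 2-fold. By this rule 10 of the 44 tested members were called, 9 higher in CD4SP and 1 (Ifit3) higher in CD8SP iT cells. Over all tested genes, 7.92% were called with higher levels in CD4SP and 1.8% with higher levels in CD8SP. After the rescaling these shares were 4.67% and 2.86%, and 5 of the 10 members remained called: Iigp1, Irgm2, Slfn5, Ifi27l2a and Ifit3. The CD4SP libraries all lay above the CD8SP libraries for 36.6% of all tested genes, and all below them for 6.61%; after the rescaling these shares were 19% and 17.8%.

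Upstream sequences of the IRGs Igtp and Irgm2, the GBP Gbp3, Slfn5, Ifit3 and Ifih1 are printed first. These are the called members for which a RefSeq promoter entry was found. The sequences show the motifs that the interferon pathways are known to use. Each runs 5′ to 3′ on the gene's own strand from 250 bases before to 50 bases after the start annotated by RefSeq (300 bases, GRCm38.p6). For Irgm2, Slfn5 and Gbp3 this start lies inside the gene span that GENCODE gives, and Gbp3 has a second RefSeq start, whose window (chr3:142560106-142560405) held neither motif. Capitals mark the ISRE core GAAANNGAA (TTCNNTTTC when read on the other strand) and the GAS core TTCNNNGAA, which reads alike on both strands. Both strands were searched and matches may overlap.
Igtp, chr11:58199306-58199605, plus strand: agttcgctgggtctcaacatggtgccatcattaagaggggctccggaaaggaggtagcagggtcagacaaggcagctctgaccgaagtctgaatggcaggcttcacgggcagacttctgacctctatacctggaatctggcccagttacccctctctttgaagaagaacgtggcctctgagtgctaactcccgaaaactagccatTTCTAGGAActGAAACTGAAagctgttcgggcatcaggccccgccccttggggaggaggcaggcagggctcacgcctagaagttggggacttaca
Irgm2, chr11:58214727-58215026, plus strand: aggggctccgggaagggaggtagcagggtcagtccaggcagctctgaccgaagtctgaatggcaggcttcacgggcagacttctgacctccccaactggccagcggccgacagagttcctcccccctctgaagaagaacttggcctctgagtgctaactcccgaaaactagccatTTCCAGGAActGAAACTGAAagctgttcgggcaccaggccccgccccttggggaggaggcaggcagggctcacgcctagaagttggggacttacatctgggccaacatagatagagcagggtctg
Gbp3, chr3:142559794-142560093, plus strand: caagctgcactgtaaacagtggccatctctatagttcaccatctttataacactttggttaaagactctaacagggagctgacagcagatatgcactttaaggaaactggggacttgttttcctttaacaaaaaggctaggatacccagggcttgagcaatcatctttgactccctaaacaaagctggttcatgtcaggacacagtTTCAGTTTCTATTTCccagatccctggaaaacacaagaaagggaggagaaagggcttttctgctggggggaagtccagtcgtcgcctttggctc
Slfn5, chr11:82951852-82952151, plus strand: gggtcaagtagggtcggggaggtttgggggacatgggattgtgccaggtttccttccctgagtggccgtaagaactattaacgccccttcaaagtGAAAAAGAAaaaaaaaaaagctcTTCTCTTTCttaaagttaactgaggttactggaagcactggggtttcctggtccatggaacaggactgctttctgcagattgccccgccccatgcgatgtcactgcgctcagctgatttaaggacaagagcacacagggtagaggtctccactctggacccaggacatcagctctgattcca
Ifit3, chr19:34583279-34583578, plus strand: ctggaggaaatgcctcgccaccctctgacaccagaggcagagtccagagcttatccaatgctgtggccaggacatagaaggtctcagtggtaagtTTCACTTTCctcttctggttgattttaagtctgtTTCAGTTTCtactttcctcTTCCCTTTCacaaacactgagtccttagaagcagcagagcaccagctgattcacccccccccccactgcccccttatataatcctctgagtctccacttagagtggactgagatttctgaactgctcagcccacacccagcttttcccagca
Ifih1, chr2:62646206-62646505, minus strand: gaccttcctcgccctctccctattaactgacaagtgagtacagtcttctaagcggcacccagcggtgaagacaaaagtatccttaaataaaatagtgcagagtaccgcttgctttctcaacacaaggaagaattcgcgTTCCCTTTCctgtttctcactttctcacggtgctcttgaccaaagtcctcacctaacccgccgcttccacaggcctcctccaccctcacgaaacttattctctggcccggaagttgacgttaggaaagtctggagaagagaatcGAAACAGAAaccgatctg

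Promoter entries were found for 33 of the 46 members. The ISRE core was present for 8 of 8 GTPases, 13 of 21 type I interferon genes (61.9%) and 2 of 4 Schlafens, against 2638 of 27025 genes overall (9.76%). The GAS core was present for 5 of 8 GTPases (62.5%), 4 of 21 type I interferon genes (19.0%) and 0 of 4 Schlafens, against 2582 of 27025 genes (9.55%). Igtp and Irgm2 each held a GAS core that began 11 bases before an ISRE core, at 45 and 34 bases before the start of Igtp and at 75 and 64 bases before that of Irgm2. Tgtp1 and Tgtp2, a near-identical pair of genes, held the same arrangement at 88 and 77 bases and at 81 and 70 bases before their starts. The blocks that carry both cores are compared here.
Igtp block: TTCTAGGAActGAAACTGAA
Irgm2 block: TTCCAGGAActGAAACTGAA
Tgtp1 block: TTCCAGGAAtcGAAACTGAA
Tgtp2 block: TTCCAGGAAtcGAAACCGAA
This spacing, which was picked after the matches were seen, occurred in 9 of 27025 genes (0.0333%), the others being Adar, Gm12185, Gm32293, LOC115488470 and Olfr382. These 4 members belong to one gene family and Gm12185 overlaps Tgtp1, so the matches are not independent. The printed windows of Gbp3, Ifit3, Slfn5 and Ifih1 carried 2, 3, 2 and 2 ISRE cores and no GAS core. A match is a description of letters and shows no binding.

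Of the 11 GTPases, 5 were called higher in CD4SP iT cells and none higher in CD8SP iT cells, against 7.92% and 1.8% of all tested genes. By adjusted p alone, 7 passed, all higher in CD4SP, where 17.6% of all genes passed. With limma's unadjusted p under 0.05 there were 9 higher in CD4SP and 0 higher in CD8SP (31.4% and 5.69% of all genes). The CD4SP libraries lay above the CD8SP libraries without overlap for 8 of 11 members (36.6% of all genes), and after the rescaling for 7 (19%). The median log2 fold change was 0.94, beside 0.28 for all genes; after the rescaling it was 0.64 beside 0.00017. The 11 genes summed to 1053 to 1452 TPM in CD4SP and 619 to 634 TPM in CD8SP libraries, and to 1050 to 1222 and 657 to 742 on the rescaled values, so the sums did not overlap on either scale.

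Iigp1, an IRG that loads onto parasite vacuoles, lies at chr18:60376027-60392634. It was at 41.6, 38.2 and 39.1 TPM in CD4SP libraries 1 to 3 and at 4.71, 3.95 and 4.47 TPM in CD8SP libraries. The groups were far apart beside a spread of a few TPM within each: the mean level was 9.05-fold higher in CD4SP, with a log2 fold change of 2.92 (SE 0.17, adjusted p = 2.37e-05). Irgm2 and Igtp, neighbours at chr11:58199618-58222782 and chr11:58199556-58207591 whose annotated exons overlap on the same strand, belong to the regulatory IRGs, which control the loading of effector IRGs. Irgm2 was at 42.4, 49.9 and 49.1 TPM in CD4SP and at 14.2, 14.7 and 14.9 TPM in CD8SP libraries. The CD8SP libraries spanned less than 1 TPM and lay below every CD4SP library, and the log2 fold change was 1.62 (SE 0.15, adjusted p = 0.00026). Igtp, the most abundant GTPase here per length, was at 472, 344 and 442 TPM in CD4SP and at 181, 179 and 171 TPM in CD8SP libraries. CD4SP replicate 2 was the lowest of its group, and the groups did not overlap. The log2 fold change of Igtp was 1.23 (SE 0.14, adjusted p = 0.000734) and 0.92 after the rescaling, which ends the call by the 2-fold rule while the adjusted p stayed at 0.00078. Reads within the exons that Igtp and Irgm2 share could be assigned to either gene.

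Gbp6 and Gbp3, members of the GBP family that acts on bacterial and parasite membranes, were both called. Gbp6, at chr5:105270702-105293698, was at 83.0, 78.6 and 114 TPM in CD4SP and at 38.9, 42.9 and 28.5 TPM in CD8SP libraries. Every CD4SP library was above every CD8SP library, with a log2 fold change of 1.3 (SE 0.20, adjusted p = 0.0037). Gbp3, at chr3:142560026-142573209, was at 58.1, 43.2 and 70.9 TPM in CD4SP and at 26.2, 23.4 and 20.6 TPM in CD8SP libraries. The CD4SP libraries spread more widely than the CD8SP libraries without reaching them, and the log2 fold change was 1.24 (SE 0.20, adjusted p = 0.00439). After the rescaling both fell just under 2-fold, at 0.998 and 0.94, with adjusted p = 0.00606 and 0.00527. Over 1380 nt, Gbp6 transcripts are 99.6% identical to Gm43302, which overlaps its exons on the same strand, and 98.5% identical to Gbp10, so its level is uncertain where reads were divided among these genes. Gbp10, a gene outside the 46, was itself called at a log2 fold change of 1.28.

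Tgtp1 and Tgtp2, IRGs of T cells that share 99.8% of bases over 2811 nt, had adjusted p-values of 0.00862 and 0.00877 without reaching 2-fold (log2 fold changes 0.78 and 0.77). Their sum, which does not depend on how reads were divided between them, was 337, 260 and 369 TPM in CD4SP and at 190.0, 188 and 178 TPM in CD8SP libraries. The sums did not overlap and gave 0.78 (SE 0.14, adjusted p = 0.00742). The remaining 4 GTPases did not pass. Gbp2 was at 79.1 to 129 TPM in CD4SP and 72.9 to 75.8 TPM in CD8SP libraries (log2 fold change 0.51, adjusted p = 0.0853). Gbp4 was at 162, 84.5 and 85.3 TPM in CD4SP and at 40.5, 41.3 and 95.9 TPM in CD8SP libraries. One library in each group stood away from its 2 companions, and the groups overlapped (0.94, adjusted p = 0.101). Without CD8SP replicate 3, its highest CD8SP library, Gbp4 was called at 1.34 (adjusted p = 0.0302), the only alternative of 15 with a call. Annotated exons of Gbp4 overlap those of Gbp8 and Gbp9 on the same strand, so its level is uncertain where reads were divided. Irgm1, a regulatory IRG known for a role in lymphocyte survival, was at 118, 53.1 and 21.3 TPM in CD4SP and at 26.3, 30.3 and 28.3 TPM in CD8SP libraries. Its CD4SP libraries lay on both sides of the CD8SP libraries (0.84, adjusted p = 0.253). Without CD4SP replicate 3, its lowest library, Irgm1 was called at 1.46 (adjusted p = 0.0302), the only alternative of 15 with a call. Gbp7, at 13.3 to 21.4 TPM in CD4SP and 19.4 to 22.3 TPM in CD8SP libraries, was the only GTPase with a log2 fold change under 0 (-0.20, adjusted p = 0.504).

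**Figure D1:**
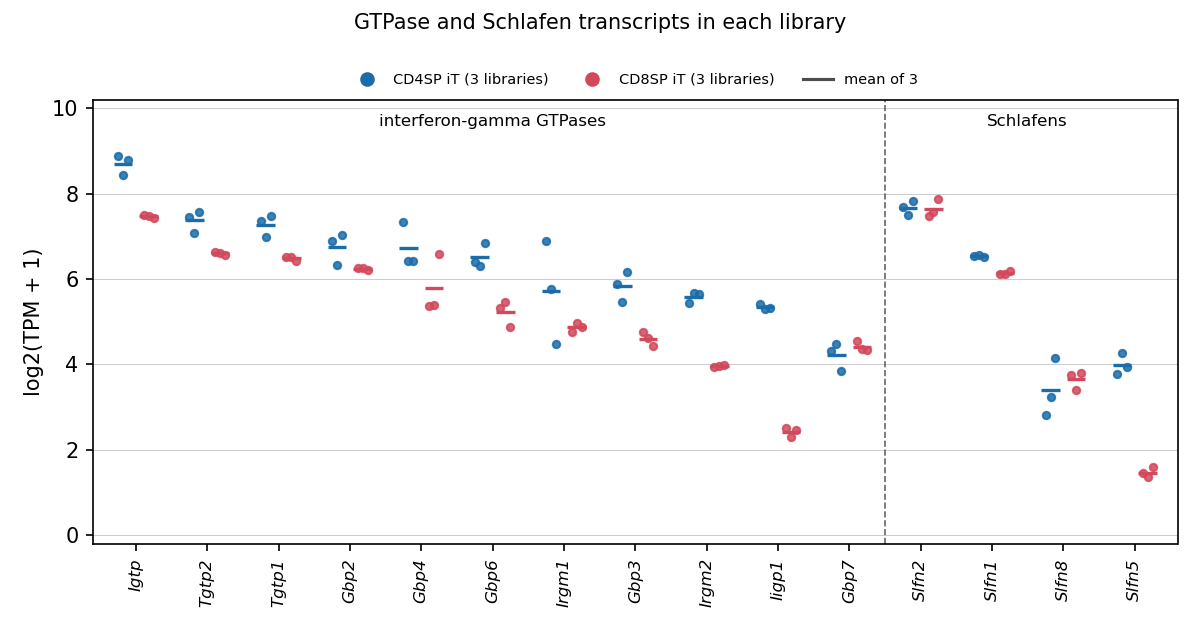
Level of each GTPase and Schlafen in each library, as log2(TPM + 1), ordered by mean within each group; each dot is 1 library (CD4SP blue, CD8SP red, replicates 1 to 3 from left to right) and each bar the mean of 3. Iigp1, Irgm2 and Slfn5 show wide gaps between the populations, whereas the dots of Irgm1, Gbp4, Gbp7, Slfn2 and Slfn8 overlap.

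Of the 4 Schlafens, 1 was called, higher in CD4SP iT cells (7.92% of all genes). Slfn5, at chr11:82951349-82964840, is a long-form Schlafen with a helicase-like region. It was at 12.7, 18.2 and 14.3 TPM in CD4SP and at 1.73, 1.56 and 2.0 TPM in CD8SP libraries. The lowest CD4SP library was several times the highest CD8SP library. The mean was 8.54-fold higher in CD4SP, with a log2 fold change of 2.53 (SE 0.22, adjusted p = 0.000241), and 2.28 after the rescaling. An antisense gene, Slfn5os, overlaps its exons, and the use of strand in counting is not given in the sources used here, so reads of this pair cannot be told apart.

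The other Schlafens differed less, and Slfn1 and Slfn2 were far more abundant per length than Slfn5. Slfn1, a short-form Schlafen known for slowing T cell growth, was at 92.0, 93.9 and 90.9 TPM in CD4SP and at 68.5, 68.1 and 72.0 TPM in CD8SP libraries. The groups did not overlap, but the log2 fold change was 0.40 (SE 0.11, adjusted p = 0.0386), under 2-fold, and 0.10 (adjusted p = 0.638) after the rescaling. Slfn2, known for its need in T cell quiescence, was at 206, 181 and 225 TPM in CD4SP and at 178, 188 and 234 TPM in CD8SP libraries. The libraries of the populations lay among each other, and the difference was 0.03 with a 95% interval of -0.30 to 0.36; its sign turned to -0.27 after the rescaling. Slfn8 was at 6.0, 8.49 and 16.7 TPM in CD4SP and at 12.4, 9.54 and 13.0 TPM in CD8SP libraries, again with overlap (-0.25, adjusted p = 0.613). All 4 genes lie within chromosome 11, from Slfn5 (start 82951349) to Slfn1 (end 83122670). Along this stretch Slfn5 differed by 2.53, and its neighbours Slfn8, Slfn2 and Slfn1 by -0.25, 0.03 and 0.40, differences that were not tested against each other. The median of the 4 was 0.22, below the 0.28 of all genes, and -0.087 after the rescaling.

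Among the 31 type I interferon genes, 29 were tested, 3 were called higher in CD4SP (Ifi27l2a, Oas2 and Ifih1) and 1 was called higher in CD8SP iT cells (Ifit3). These counts are near the shares of all tested genes, 7.92% and 1.8%. By adjusted p alone, 9 passed with higher and 2 with lower levels in CD4SP (17.6% and 3.23% of all genes), but after the rescaling 4 and 3 did (8.43% and 7.47%), with Lgals3bp (-0.47, adjusted p = 0.0196) beside Ifit3 and Mx1. The libraries did not overlap for 13 genes above and 3 below in CD4SP, against 36.6% and 6.61% of all genes, and after the rescaling for 5 above and 8 below, against 19% and 17.8%. The median log2 fold change was 0.25, close to the 0.28 of all genes, and turned to -0.029 after the rescaling, beside 0.00017 for all genes. After the rescaling 1 gene was called higher in CD4SP (Ifi27l2a) and 2 higher in CD8SP (Ifit3 and Mx1). The called genes of this group pointed both ways.

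Ifi27l2a, a small membrane protein gene at chr12:103442167-103443680, was the most abundant of the 46 members per length in every CD4SP library; in CD8SP libraries its levels overlapped those of Ifi47. It was at 1245, 1961 and 1349.5 TPM in CD4SP and at 339, 328 and 411 TPM in CD8SP libraries. The CD4SP levels were well above all CD8SP levels, 4.22-fold in the mean, with a log2 fold change of 2.05 (SE 0.18, adjusted p = 0.000231). This gene alone made up 36.7 to 51.2% of the summed TPM of the type I interferon genes in CD4SP and 15.2 to 19.2% in CD8SP libraries. The sum of the group was 3391 to 3828 TPM in CD4SP and 2119 to 2162 TPM in CD8SP libraries, and without Ifi27l2a it was 1867 to 2227 and 1733 to 1834 TPM. On the rescaled values the sum was 2855 to 3818 in CD4SP and 2279.6 to 2509 in CD8SP libraries, and without Ifi27l2a it turned to 1806 to 1869 against 1915 to 2027. The median level of the group's genes was 23.8 to 24.5 TPM in CD4SP and 24.9 to 25.1 TPM in CD8SP libraries, slightly higher in the latter.

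Oas2, an enzyme that makes the oligoadenylate activator of RNase L, lies at chr5:120730333-120749853. It was at 8.30, 6.23 and 4.95 TPM in CD4SP and at 2.99, 2.01 and 1.89 TPM in CD8SP libraries. The groups did not overlap, at low levels (log2 fold change 1.18, SE 0.27, adjusted p = 0.0174). Ifih1, which encodes the RNA sensor MDA5, lies at chr2:62595798-62646255 and was at 13.4, 7.45 and 13.9 TPM in CD4SP and at 4.09, 5.84 and 3.97 TPM in CD8SP libraries. Its CD4SP replicate 2 came near the CD8SP libraries without reaching them (1.13, SE 0.28, adjusted p = 0.0247). Both calls depended on single libraries. Oas2 was not called without CD4SP replicate 1 (adjusted p = 0.0546), CD8SP replicate 2 (0.0718) or CD8SP replicate 3 (0.0584), and Ifih1 was not called without CD4SP replicate 1 (0.0748), CD4SP replicate 3 (0.0825), CD8SP replicate 1 (0.086) or CD8SP replicate 3 (0.0805). After the rescaling their log2 fold changes were 0.94 and 0.86, under 2-fold.

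Ifit3, an RNA-binding antiviral protein gene at chr19:34583531-34588731, was the single member called higher in CD8SP iT cells. It was at 12.5, 6.78 and 21.9 TPM in CD4SP and at 33.8, 36.7 and 32.0 TPM in CD8SP libraries. The CD8SP libraries were close together and the CD4SP libraries were spread widely below them (log2 fold change -1.39, SE 0.34, adjusted p = 0.0247; mean level 2.49-fold higher in CD8SP). The call was lost without CD4SP replicate 1 (adjusted p = 0.063), without CD4SP replicate 2 (-0.997, just under 2-fold), and without CD8SP replicate 1 (0.0618), 2 (0.0718) or 3 (0.0711). Its transcript is 97.8% identical to that of Ifit3b over 1700 nt, so its level is uncertain where reads were divided. Its family neighbour Ifit1, in contrast, was at 13.1 to 23.8 TPM in CD4SP and 14.6 to 20.6 TPM in CD8SP libraries, with full overlap (0.05, adjusted p = 0.899). Mx1, a dynamin-like antiviral GTPase, was at 21.4, 24.2 and 22.7 TPM in CD4SP and at 36.6, 39.8 and 36.9 TPM in CD8SP libraries. Its groups did not overlap, with a log2 fold change of -0.71 (SE 0.14, adjusted p = 0.0104), and it was called after the rescaling at -1.0 (adjusted p = 0.00345). Isg15, a ubiquitin-like modifier, was low in all libraries, at 1.61, 1.31 and 1.32 TPM in CD4SP and at 1.92, 2.60 and 4.63 TPM in CD8SP libraries, and did not pass (-0.69, adjusted p = 0.139).

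Besides the called genes and Mx1, 6 type I interferon genes passed the adjusted p with higher levels in CD4SP and under 2-fold. Samhd1, a dNTPase that limits reverse transcription, was at 228, 161 and 233 TPM in CD4SP and at 108, 111 and 107 TPM in CD8SP libraries. The gap was wide beside the tight CD8SP values (log2 fold change 0.91, adjusted p = 0.00566), and it remained at 0.60 (adjusted p = 0.00883) after the rescaling. Without CD4SP replicate 2, its lowest CD4SP library, the gene was called at 1.08. Bst2, the tether of budding virus particles, was at 10.97 to 12.7 TPM in CD4SP and 4.86 to 8.68 TPM in CD8SP libraries (0.81, adjusted p = 0.0434). It was called at 1.01 without CD8SP replicate 3, its highest CD8SP library. The ADP-ribosyltransferases Parp9 and Parp14 differed by 0.61 and 0.53 (adjusted p = 0.019 and 0.0452). Zbp1, a sensor of Z-form nucleic acid, and Ifi203, of the Ifi20x family of DNA-binding proteins, differed by 0.43 and 0.49 (adjusted p = 0.0238 and 0.0236). After the rescaling, the differences of these 5 genes other than Samhd1 were 0.12 to 0.53, and none had an adjusted p under 0.05.

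Neither Isg15 nor Ifit1 passed, and the same held for 16 further type I interferon genes. Among RNA sensors and their regulators, Ddx58 (RIG-I) was at 27.5 to 34.3 TPM in CD4SP and 19.8 to 25.1 TPM in CD8SP libraries (log2 fold change 0.42, adjusted p = 0.11), and Dhx58 differed by -0.12. Among the oligoadenylate synthetases and their relatives, Oas3, which neighbours Oas2 at chr5:120753098-120777661, differed by 0.24 (adjusted p = 0.392), Oas1a by 0.04 and Oasl2 by 0.93. Oasl2, at 6.11, 11.9 and 11.5 TPM in CD4SP and at 4.39, 6.76 and 2.92 TPM in CD8SP libraries, overlapped in 1 library of each population (adjusted p = 0.0791). It was called at 1.21 without CD4SP replicate 1, its lowest CD4SP library, and in no other alternative. Rsad2 (viperin) was at 4.08 to 5.87 TPM in CD4SP and 2.35 to 3.45 TPM in CD8SP libraries (0.56, adjusted p = 0.137). Among regulators of the pathway, Usp18, which removes ISG15 from proteins, differed by 0.08. Ifi47, an IRG counted here with the type I genes, was among the most abundant members per length. It was at 366 to 463 TPM in CD4SP and 345 to 403 TPM in CD8SP libraries, and differed by 0.15 (adjusted p = 0.412). After the rescaling Ifi47 differed by -0.16 (adjusted p = 0.274), with all CD8SP libraries above the CD4SP libraries. With Ifi47 counted among the GTPases, 5 GTPases were called, as without it. Ifi204 was at 2.0, 1.27 and 8.31 TPM in CD4SP and at 1.36, 1.28 and 1.05 TPM in CD8SP libraries, so that its difference of 0.84 (adjusted p = 0.247) rested on CD4SP replicate 3. Ifi35, Rtp4, Xaf1, Trim30a, Phf11b, Herc6 and Lgals3bp differed by -0.16 to 0.29. After the rescaling, 9 of the genes with small positive differences (Ifit1, Ifi35, Ifi47, Oas1a, Oas3, Usp18, Xaf1, Trim30a and Herc6) had values under 0.

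**Figure D2:**
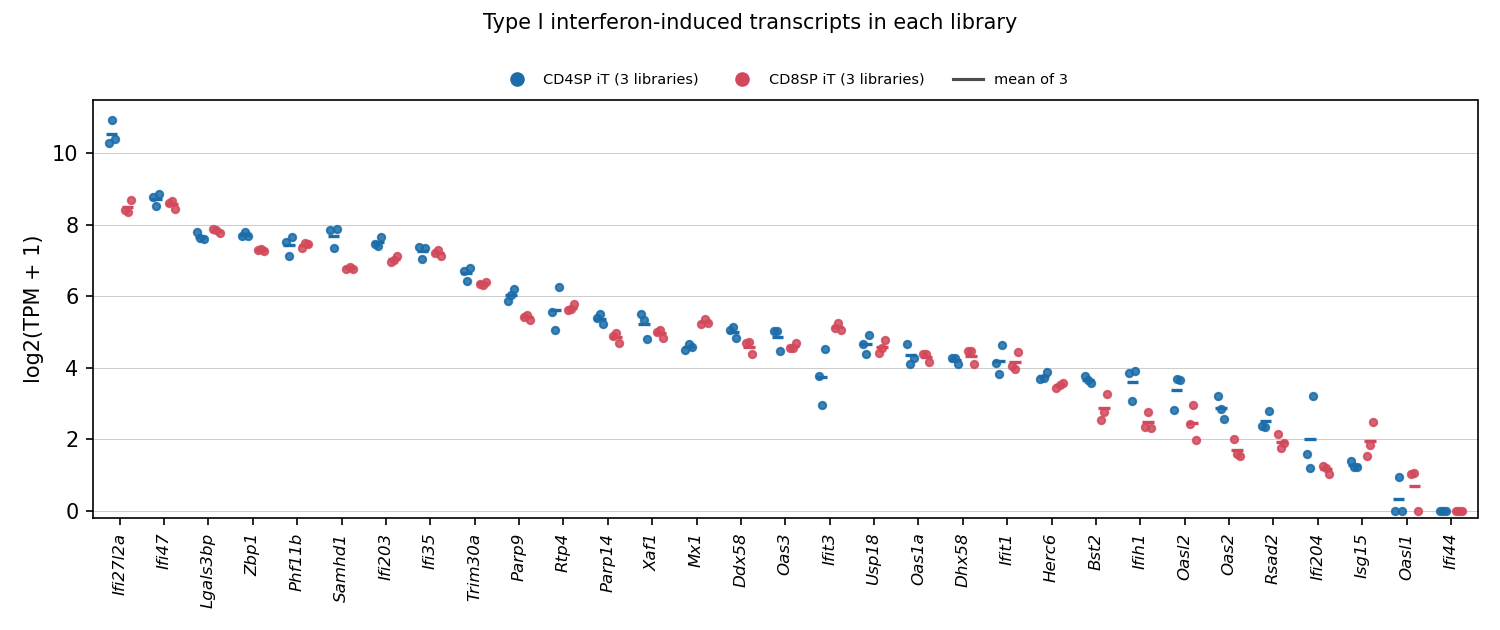
Level of each of the 31 type I interferon genes in each library, as log2(TPM + 1), ordered by mean; each dot is 1 library (CD4SP blue, CD8SP red, replicates 1 to 3 from left to right) and each bar the mean of 3. The dots of 13 genes, Ifi27l2a, Oas2, Ifih1 and Samhd1 among them, lie above in CD4SP without overlap, beside 36.6% of all tested genes. Those of Ifit3, Mx1 and Isg15 lie above in CD8SP (6.61% of all tested genes). After the rescaling, which is not drawn here, 5 genes lie above in CD4SP and 8 in CD8SP (19% and 17.8% of all tested genes).

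**Figure D3:**
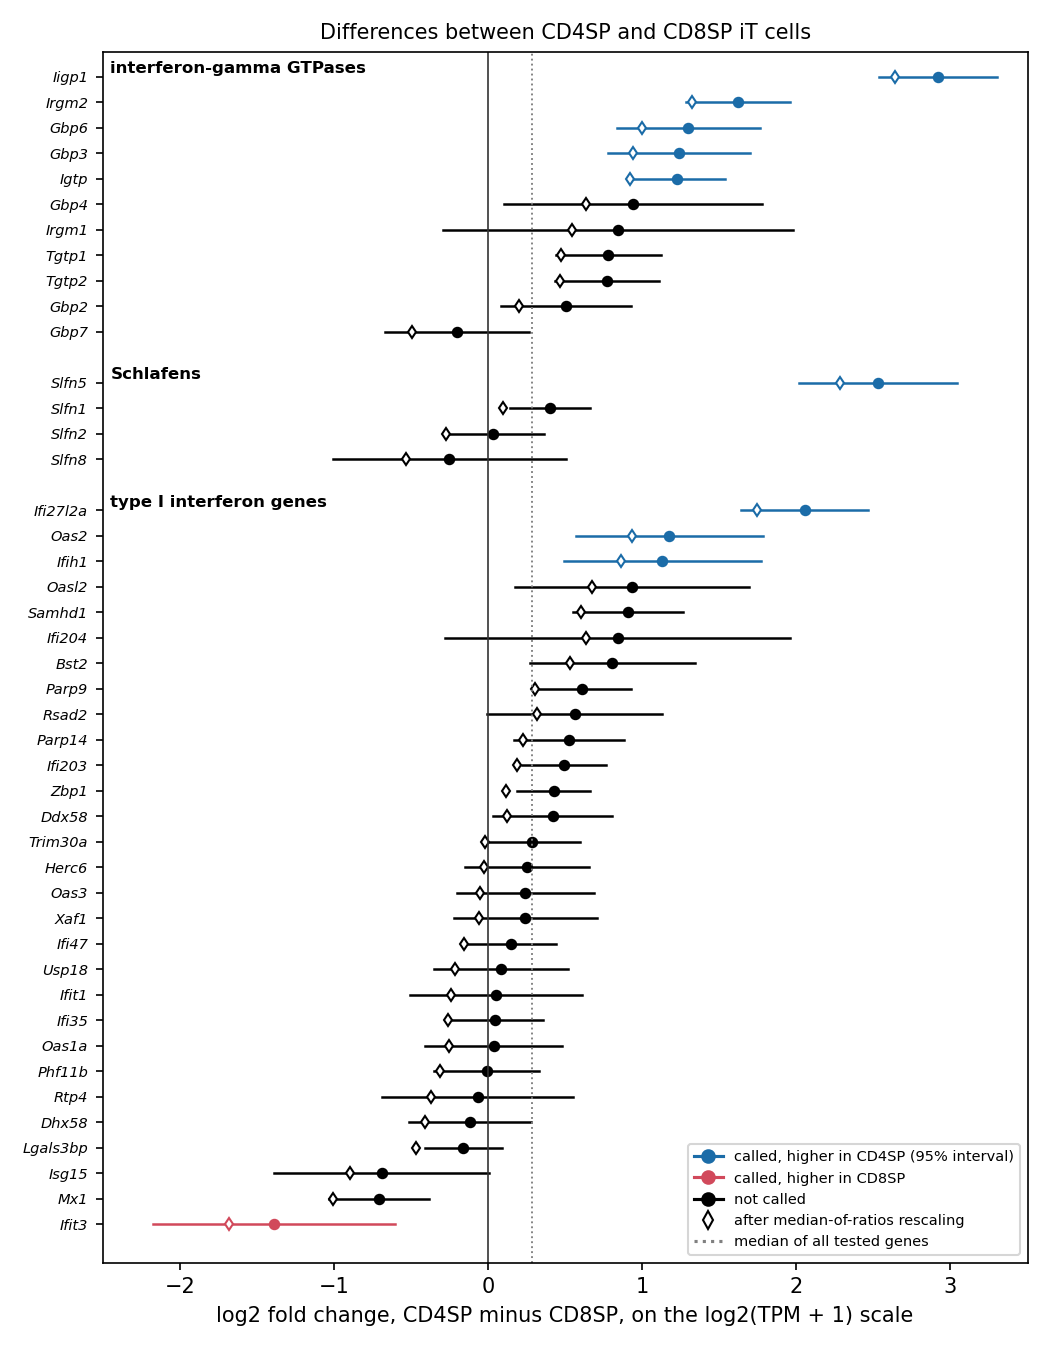
Log2 fold change of the 44 tested members (dot, with its 95% interval as a line) and the same after median-of-ratios rescaling (diamond), by group; blue marks calls higher in CD4SP, red the call higher in CD8SP, black genes not called, and the dotted line the median of all tested genes (0.28). The rescaled values lie to the left of the dots, and 10 of 11 GTPases stay above 0 on both scales, whereas 13 of 29 type I interferon genes do so after the rescaling. Ifi47, an IRG shown with the type I interferon genes, falls to -0.16 after the rescaling.

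The spread between libraries differed between the populations and bears on how closely each member was measured. The median within-population SD on the log2 scale was 0.289 in CD4SP and 0.10 in CD8SP for the GTPases, 0.245 and 0.112 for the type I interferon genes, and 0.202 and 0.162 for the Schlafens, beside 0.275 and 0.172 for all genes. CD4SP replicate 2 was the lowest library of its population for 8 of 11 GTPases (72.7%), 15 of 29 type I interferon genes (51.7%) and 1 of 4 Schlafens (25%), beside 57.9% of all genes.

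The pathway that drives these genes was described with a list of 47 ligand, receptor, kinase, transcription factor, feedback and sensor genes, of which 35 were tested. Of these 35 genes, 4 were called, all with higher levels in CD4SP (7.92% of all genes), none with higher levels in CD8SP (1.8%; 2 at limma's unadjusted p under 0.05), and 15 had an adjusted p under 0.05, 13 higher in CD4SP (17.6% of all genes) and 2 higher in CD8SP (3.23%). Of the 10 ligand genes, 9 (Ifnb1, 4 Ifna genes, Ifne, Ifnk, Ifnl2 and Ifnl3) were listed at 0 TPM in all 6 libraries. Ifng, the gene of interferon-gamma, was at 68.3, 72.1 and 62.3 TPM in CD4SP and at 83.3, 83.4 and 78.2 TPM in CD8SP libraries. All CD8SP libraries lay above the CD4SP libraries, but the difference did not pass (log2 fold change -0.27, adjusted p = 0.144); after the rescaling it was -0.58 with adjusted p = 0.0234, under 2-fold.

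Among the receptors, Ifngr2, the signalling chain of the interferon-gamma receptor, was at 9.22, 16.3 and 8.75 TPM in CD4SP and at 0.90, 2.01 and 1.27 TPM in CD8SP libraries. The groups were well apart (log2 fold change 2.35, SE 0.31, adjusted p = 0.00158; mean level 8.20-fold higher). Its partner Ifngr1, the ligand-binding chain, was far more abundant per length and differed less, at 527, 469.7 and 549 TPM in CD4SP and at 412, 439 and 368 TPM in CD8SP libraries (0.34, adjusted p = 0.0689). The type I receptor genes Ifnar1 and Ifnar2 differed by 0.36 and 0.19 (adjusted p = 0.262 and 0.499). Il10rb, a chain shared by the IL-10 and interferon-lambda receptors, was at 48.2 to 69.1 TPM in CD4SP and 80.4 to 86.7 TPM in CD8SP libraries, higher in CD8SP under 2-fold (-0.51, adjusted p = 0.0473), and Ifnlr1 was listed at 0 TPM in all 6 libraries. Among the kinases, Jak2 and Tyk2 passed under 2-fold (0.73 and 0.62, adjusted p = 0.0297 and 0.0311) and Jak1 did not pass (-0.32, adjusted p = 0.144). After the rescaling Jak2 and Tyk2 did not pass (0.43 and 0.32, adjusted p = 0.127 and 0.161). Jak1 then passed with higher levels in CD8SP under 2-fold (-0.63, adjusted p = 0.00484). The signs of all 3 stayed the same.

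Among the transcription factors, Irf5 was at 11.3, 12.2 and 11.3 TPM in CD4SP and at 2.12, 2.13 and 1.44 TPM in CD8SP libraries, a difference of 2.13 (SE 0.22, adjusted p = 0.000487) in which every CD4SP library was above every CD8SP library. The ISRE-binding partners Stat2 and Irf9, with Irf1 and Irf8, differed by 0.72, 0.79, 0.59 and 0.72 (adjusted p = 0.0304, 0.0261, 0.038 and 0.0333), all under 2-fold, and none of these 4 had an adjusted p under 0.05 after the rescaling. Irf2, Irf3 and Nlrc5 did not pass (0.42, 0.27 and 0.17, adjusted p = 0.206, 0.216 and 0.404). Irf7, a main amplifier of the type I response, was at 67.2 to 73.7 TPM in CD4SP and 55.7 to 77.5 TPM in CD8SP libraries, with overlap (0.04, adjusted p = 0.887). Socs1, the feedback inhibitor of JAK kinases, was called at 1.02 (SE 0.27, adjusted p = 0.0329), from 34.1, 72.1 and 46.9 TPM in CD4SP against 27.1, 26.2 and 18.3 TPM in CD8SP libraries. CD4SP replicate 2 was its highest library; without that library the difference was 0.74, and without CD4SP replicate 3 or any 1 CD8SP library the adjusted p was 0.0575 to 0.111. After the rescaling it was 0.72 (adjusted p = 0.158), and the call was also lost with quantile normalization (0.72, adjusted p = 0.166), with ribosomal protein genes removed (0.87, adjusted p = 0.076) and with no filter on low values (adjusted p = 0.0564).

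**Figure D4:**
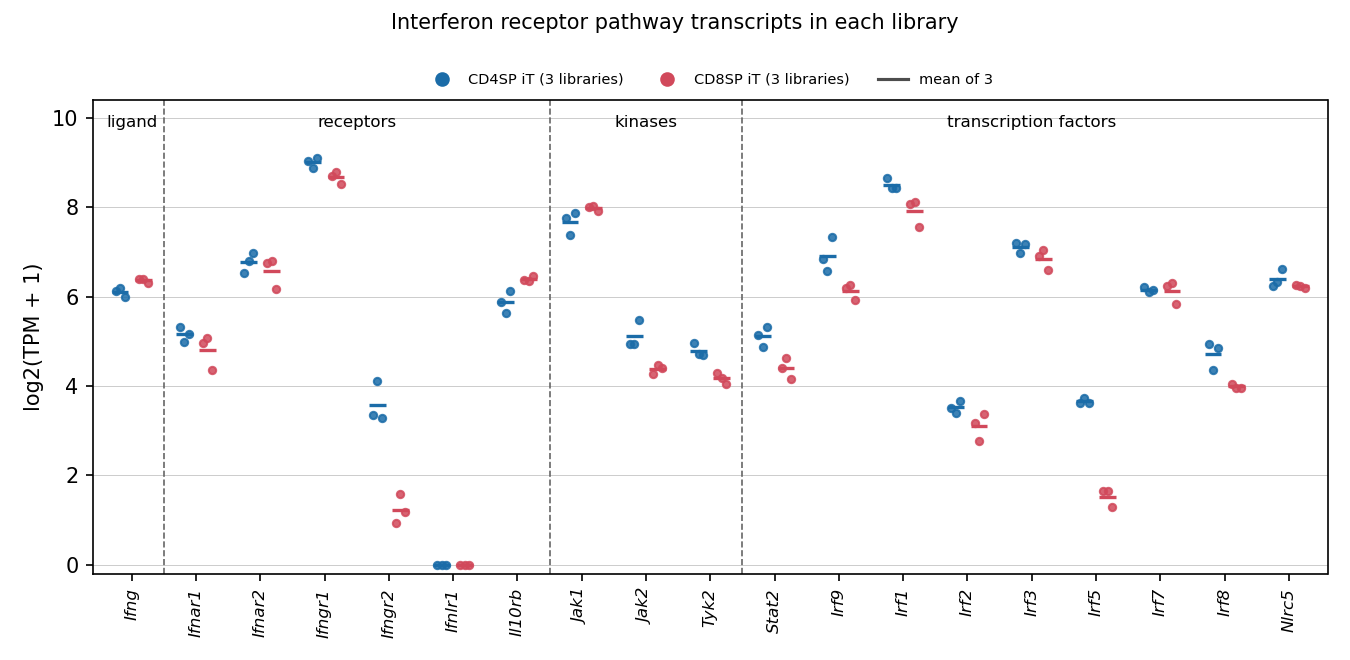
Level of interferon-gamma and of receptor, kinase and transcription factor genes of the interferon pathways in each library, as log2(TPM + 1); each dot is 1 library (CD4SP blue, CD8SP red, replicates 1 to 3 from left to right) and each bar the mean of 3. Ifngr2 and Irf5 stand well above in CD4SP, and Il10rb, Ifng and Jak1 lie above in CD8SP by smaller differences.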

How the data were processed

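RNA was measured by polyA RNA-seq in 3 CD4SP and 3 CD8SP iT libraries, grouped by sample title. The authors amplified cDNA from 1000 cells, aligned reads to mm10 with HISAT2 and estimated expression with StringTie, and the deposited values are TPM, 1 column per library. Library totals were 997896 to 998100 TPM; TPM keeps no depth, so the depth behind each value is unknown and no interval from counting could be given. Strand use and the treatment of reads shared by similar genes are not given in the sources used here.

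From these, log2(TPM + 1) was modelled by limma 3.58.1 under R 4.3.3 (population as the only term, eBayes with trend), for the 10476 of 23420 rows at 1 TPM or more in at least 3 libraries, with Benjamini-Hochberg adjustment over all of them. A call needs an adjusted p under 0.05 and over 2-fold. Positions are from GENCODE M21 (GRCm38, the assembly of mm10), 1-based; copies were sought with blastn 2.17.0 (at least 95% identity over 200 nt); promoters are RefSeq's (GRCm38.p6). Entries were not used for Ifi27l2a, Dhx58, Oas2, Mx1, Usp18, Rtp4, Zbp1, Parp9, Parp14, Gbp4, Gbp6, Iigp1 and Ifi204.

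The rule for the members reads no value, but the members and lists were chosen with earlier results of these data known. Every member is accounted for, with all 6 values where called. Of the pathway list, called genes, receptors, kinases and transcription factors are named (a single gene is counted but not reported here), and of the family list called genes; other genes were picked once their values were known. Marker lists covered T cell, CD4 and CD8 lineage, B cell, myeloid, plasmacytoid and conventional dendritic, NK, erythroid and stromal genes. Alternatives tried were median-of-ratios and quantile scaling, removal of ribosomal protein genes, a filter at 5 TPM or none, pseudocount 0.1, a replicate block, adjusted p alone, averaging CD8SP replicates 1 and 2, and leaving out each library; Ifi47 was also counted with the GTPases, and Tgtp1 and Tgtp2 as a sum.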

Additional observations from a re-analysis of the deposited data

How the results depend on the processing

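No called member changed sign under the 11 alternatives that moved its log2 fold change; the other 4 (adjusted p alone, both other filters and the replicate block) leave it as it is. Adjusted p alone cannot end a call, and under the 5 TPM filter Iigp1, Slfn5 and Ifih1 pass through their CD4SP libraries, so both were left out of this count: of 13 alternatives, Iigp1, Irgm2, Slfn5 and Ifi27l2a were called in 13, Igtp and Gbp6 in 12, Gbp3 in 11, Oas2 in 8, Ifit3 in 7 and Ifih1 in 6. Their adjusted p-values ranged up to 0.00322 for the first 4, 0.0221 for the next 3 and 0.086 for the last 3. Among the 34 tested members without a call, the sign turned for 13 in 1 or more alternatives.

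Median-of-ratios rescaling called 2 GTPases in place of 5 and 2 pathway genes in place of 4, and turned the median log2 fold change of the type I interferon genes from 0.25 to -0.029 and that of the Schlafens from 0.22 to -0.087. Quantile normalization and removal of ribosomal protein genes also called 2 pathway genes, and quantile normalization turned the Schlafen median to -0.0022. By construction, adjusted p alone called more genes: 11 type I interferon genes in place of 4, 2 Schlafens in place of 1, and 15 pathway genes. Averaging CD8SP replicates 1 and 2, which leaves fewer samples, called 2 type I interferon genes. Leaving out each library called 2 to 4 type I interferon genes, 5 to 6 GTPases, 1 Schlafen and 2 to 3 pathway genes. Apart from the main fit, adjusted p alone and median-of-ratios rescaling, the share of all genes called in each setting is not given here. The counts of those settings therefore cannot be set against it. Over all genes, 830 calls were CD4SP-high and 189 CD8SP-high, and 489 and 300 after median-of-ratios rescaling. The cause of these changes was not tested.

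Same-numbered libraries did not deviate together (correlations 0.0515, -0.0168 and 0.0887), so the numbers were not used as pairs; the labels do not say whether they mark a shared mouse. Under a replicate block the counts were 4 type I interferon genes, 5 GTPases, 1 Schlafen and 4 pathway genes, and no call among the members was lost. The share of all genes called under the block is not given here. Depth is unknown, so levels near 1 TPM, as of Isg15 and Oasl1, are the least certain.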

Other observations

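A further list held relatives of the 46 genes from the same families. It also held the Ifitm genes and Ifi30, whose families have no member among the 46. Of its 47 symbols, 34 were present in the data and 26 were tested. Of these, 5 were called higher in CD4SP (Ifitm2, Gm4951, Ifitm3, Gbp10 and Ifi30) and 1 higher in CD8SP iT cells (Ifitm10), beside 7.92% and 1.8% of all tested genes. The Ifitm genes, of which Ifitm1, Ifitm2 and Ifitm3 encode small membrane proteins known for blocking virus entry, differed from each other in direction. Ifitm2 was at 152, 201 and 156 TPM in CD4SP and at 17.8, 11.7 and 14.0 TPM in CD8SP libraries (log2 fold change 3.47, SE 0.19, limma adjusted p = 1.66e-05). Ifitm3 was at 260.1, 335 and 256 TPM in CD4SP and at 86.8, 75.7 and 83.7 TPM in CD8SP libraries (1.77, adjusted p = 0.00013). Both lay above in every CD4SP library. Ifitm1, in contrast, was at 369, 562 and 356 TPM in CD4SP and at 777, 786 and 759 TPM in CD8SP libraries, above in every CD8SP library (-0.88, adjusted p = 0.0093), and was called after median-of-ratios rescaling at -1.19. Ifitm10 was at 1.43, 2.17 and 3.23 TPM in CD4SP and at 11.5, 11.3 and 8.39 TPM in CD8SP libraries (-1.82, adjusted p = 0.00295). The IRG relative Gm4951 was low, at 3.25, 2.28 and 7.66 TPM in CD4SP and at 0.368, 0.297 and 0.204 TPM in CD8SP libraries (1.94); it passed the filter on low values through the CD4SP libraries only, so that a difference was built into its test. Ifi30, a lysosomal thiol reductase gene, was at 92.6 to 115 TPM in CD4SP and 30.9 to 59.1 TPM in CD8SP libraries (1.10, adjusted p = 0.0162) and was not called after the rescaling (0.80). Gbp10 was under 2-fold after it (0.99), and the other 4 genes kept their calls.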
